A study of Mus musculus with 6 samples.

Results

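Genes of cholesterol synthesis and its control by SREBP2 were examined in primary mouse bone marrow macrophages on their way to osteoclasts, with and without conditional deletion of Slc11a2. The 8 genes were chosen by name: the transcription factor gene Srebf2, the sterol sensor partner Insig1, the synthesis enzymes Hmgcs1, Mvd, Idi1, Fdft1 and Sqle, and the late enzyme Dhcr7. All 8 were found by symbol among the 26699 genes listed in each library, and all 8 passed the filter on low counts. The cKO cells carried Slc11a2flox/flox alleles together with LysmCre, in which Cre is driven by the lysozyme M promoter of the myeloid lineage. The control cells carried Slc11a2flox/flox alleles without Cre, so an effect of Cre or of its insertion cannot be told apart from one of Slc11a2 loss. All mice were aged 8 weeks. Marrow cells of both genotypes were grown in 10 ng/mL M-CSF, passaged, and given 30 ng/mL M-CSF with 50 ng/mL of the osteoclast-inducing cytokine RANKL for 48 hours. Each genotype had 3 polyA RNA libraries. The labels do not say whether these were separate mice or cultures, and p-values therefore reflect the spread among libraries, which may be technical in part.

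Cholesterol is built from acetyl-CoA through mevalonate, farnesyl diphosphate, squalene and lanosterol, followed by a long series of steps that trim and reduce the ring system. When sterols in the endoplasmic reticulum fall short, SREBP2 is carried to the Golgi, cut free and sent to the nucleus, where it switches on nearly every gene of this route; INSIG proteins hold it back when sterols are plentiful. In osteoclasts the pathway is known as the target of nitrogen-containing bisphosphonates, which block farnesyl diphosphate synthase and so deprive the cells of the lipid anchors of small GTPases.

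Dhcr7 rose in the cKO cells and was the only one of the 8 genes to pass the test. Its level was 1.51-fold that of the control cells. Srebf2, Insig1 and the enzymes from HMG-CoA synthase to squalene epoxidase had log2 fold changes from -0.01 for Insig1 to 0.36 for Mvd, and none of them passed. Of the 16843 genes tested with edgeR's quasi-likelihood test, 2.42% were called at a Benjamini-Hochberg adjusted p below 0.05, with 1.36% called higher and 1.06% called lower in cKO cells. These were 407 genes, while DESeq2 called 800 of 13237 genes and limma-voom 581 of 16843 at that threshold. Calls by DESeq2 and limma-voom given below stand beside these larger counts. At an unadjusted p under 0.05 there were 2 of the 8 genes, Dhcr7 and Mvd, beside 17.2% of all genes tested (2892 genes), a share against which the counts at an unadjusted p below are also to be read. The median log2 fold change was 0.11 over the 8 genes and 0.10 without Dhcr7, beside 0.00149 over all genes tested. Of all genes tested, 50.38% had a positive value, the share to set beside the signs counted below. Genes of a list share the same 6 libraries, so their signs are not independent. The libraries of the genotypes did not overlap for 4 of the 8 genes (Srebf2, Hmgcs1, Mvd and Dhcr7), all of them higher in cKO cells, beside 11.1% of all tested genes in that direction and 22.5% in either.

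The libraries held 49720701 to 57797282 counts, and libraries of 1 genotype were distinct from each other, with a chi-square of 15.1 to 33.1 per degree of freedom between their counts. Slc11a2, which encodes the iron transporter DMT1, stood at 78.3, 82.8 and 87.4 CPM in cKO libraries, against 118.5, 109.6 and 118.3 CPM in control libraries (CPM, counts scaled to a common library size after TMM normalisation). Lyz2, the gene that carries the Cre, stood at 7708, 7892 and 7749 CPM in cKO libraries, against 18920, 16370 and 16030 CPM in control libraries. Both directions matched the labels. The cultures expressed osteoclast and macrophage markers in both genotypes, with the summed level of 10 osteoclast markers at 8535 to 12210 CPM in cKO and 11790 to 15310 CPM in control libraries and that of 6 macrophage markers at 5700 to 6020 CPM in cKO and 5903 to 6466 CPM in control libraries. Of the macrophage markers 0 passed with edgeR and limma-voom and 1 with DESeq2 (Mertk), with 2 at an unadjusted p under 0.05.

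Dhcr7 encodes 7-dehydrocholesterol reductase, which turns 7-dehydrocholesterol into cholesterol and whose substrate is also the precursor of vitamin D. The gene (ENSMUSG00000058454) lies on chromosome 7 from 143823145 to 143848410 on the plus strand of mm10. Its counts were 2131, 2570 and 2193 in cKO replicates 1 to 3, against 1628, 1633 and 1495 in control replicates 1 to 3. After scaling this was 42.3, 46.0 and 41.1 CPM in cKO libraries, against 31.3, 28.5 and 26.1 CPM in control libraries. Every cKO library was above every control library, and the gap between the groups was wider than the range within either. The log2 fold change was 0.59 ± 0.08 (SE, 95% interval 0.41 to 0.77, n = 3 per genotype), with an edgeR quasi-likelihood adjusted p of 0.00422. The gene ranked 45 of 16843 by p-value, and 11.0% of all tested genes had a larger fold change in either direction. The call held without any of the 6 libraries in turn, with log2 fold changes of 0.53 to 0.66 and the highest adjusted p, 0.0374, without cKO replicate 1.

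**Figure D1:**
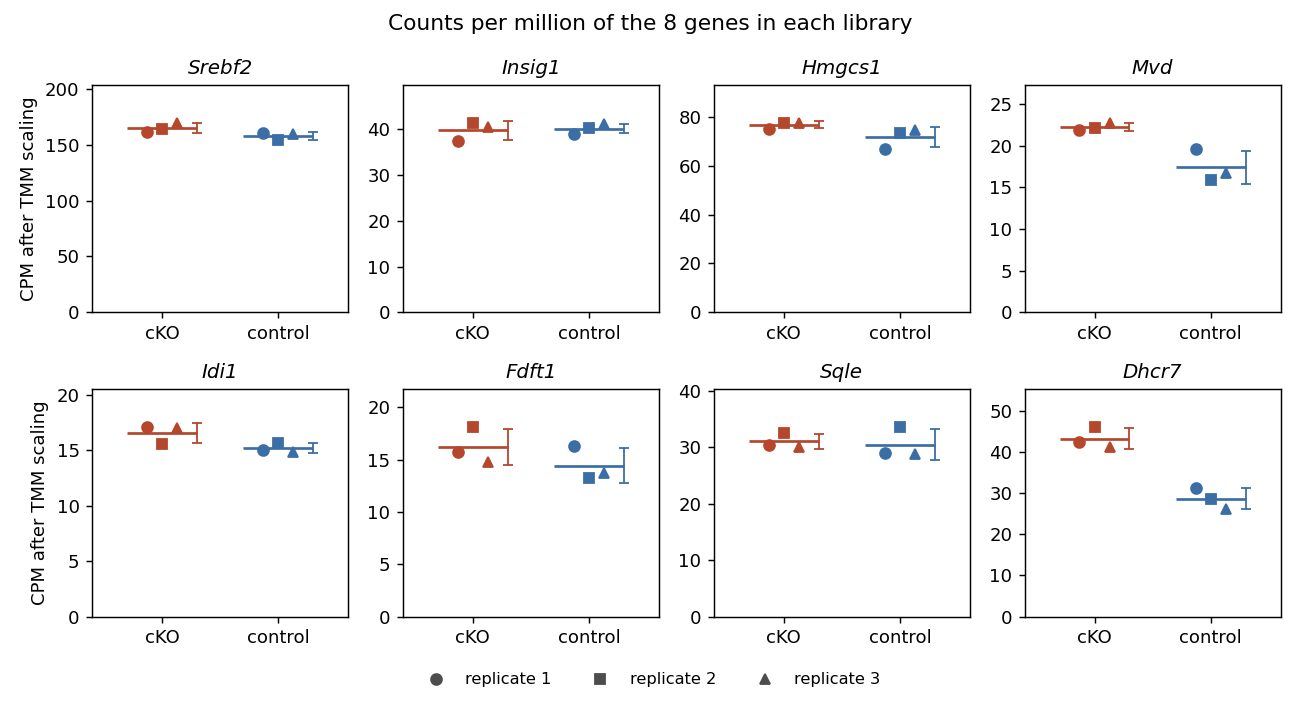
Level of each of the 8 genes in CPM after TMM scaling (vertical axes, linear, each from 0) in cKO and control libraries. Points are libraries with the replicate shown by shape, horizontal lines are means and bars are SDs of 3 libraries; Dhcr7 averaged 43.1 CPM in cKO and 28.6 CPM in control libraries without overlap, while Insig1, Idi1, Fdft1 and Sqle overlapped.

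The bases before the transcription starts of the most shifted enzymes are shown for comparison with Hmgcs1, the only one of the matched genes with a consensus sterol regulatory element there. RefSeq promoter windows (GRCm38.p6, the assembly also called mm10) matched 6 of the 8 genes by symbol, with 8 start sites in all, 3 of them for Dhcr7; Fdft1 and Sqle had no entry. Capitals mark the sterol regulatory element TCACNCCAC and the NF-Y box CCAAT, read on both strands, so that ATTGG is the box on the opposite strand, and no marked element overlaps another. Bases in annotated exons were left out, except for a stretch of 30 bases at a Dhcr7 start that lies in an annotated exon.
Hmgcs1, chr13:119690101-119690350, plus strand: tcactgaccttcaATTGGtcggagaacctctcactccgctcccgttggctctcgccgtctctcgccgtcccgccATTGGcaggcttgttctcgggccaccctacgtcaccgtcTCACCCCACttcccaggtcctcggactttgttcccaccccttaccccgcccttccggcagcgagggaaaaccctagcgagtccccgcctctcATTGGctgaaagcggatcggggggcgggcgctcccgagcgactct
Mvd, chr8:122443423-122443672, minus strand: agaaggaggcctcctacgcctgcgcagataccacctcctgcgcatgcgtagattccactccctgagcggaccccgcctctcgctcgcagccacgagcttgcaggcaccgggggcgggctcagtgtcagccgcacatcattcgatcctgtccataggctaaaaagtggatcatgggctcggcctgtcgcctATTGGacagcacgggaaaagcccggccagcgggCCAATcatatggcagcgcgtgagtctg
Dhcr7, first start, chr7:143822917-143823144, plus strand: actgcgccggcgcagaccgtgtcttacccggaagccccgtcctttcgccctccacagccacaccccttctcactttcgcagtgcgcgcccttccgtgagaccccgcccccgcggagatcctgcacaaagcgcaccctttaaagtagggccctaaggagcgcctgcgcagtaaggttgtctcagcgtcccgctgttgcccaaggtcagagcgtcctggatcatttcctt
Dhcr7, last start, chr7:143830117-143830146, plus strand: tcactgccttcaCCAATcacaggacgcagc
In the 250 bases before a start, the sterol regulatory element was found at 1.05% of all 32851 start sites and, among the matched genes, at that of Hmgcs1, from 137 to 129 bases before the start. CCAAT was found at 33.8% of all start sites and, for each of the 6 matched genes, at 1 start or more; in Dhcr7 it stood only before the last start, at 85 to 81 and, on the opposite strand, at 49 to 45 bases before it. The GC box GGGCGG was found at 32.7% of all start sites and likewise at 1 start or more of each of the 6 genes. The E-box CACGTG, found at 6.02% of all start sites, was present before the Insig1 start. In Dhcr7 it stood before only 1 of the 3 starts, at 143823399, whose sequence is not shown. A match describes letters in this window only, and gene counts do not show which Dhcr7 start was used. Only exact matches were sought, so an element that departs from the consensus letters would be missed.

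The transcription factor and its retention partner were nearly level between the genotypes. Srebf2 (ENSMUSG00000022463, chromosome 15, 82147181 to 82205379) stood at 161.0, 163.9 and 169.6 CPM in cKO libraries, against 160.2, 154.0 and 159.7 CPM in control libraries. The cKO libraries were all above the control libraries, but cKO replicate 1 exceeded control replicate 1 by less than 1 CPM. The log2 fold change was 0.06 ± 0.05 (SE, 95% interval -0.06 to 0.18, edgeR adjusted p = 0.615). Insig1 (ENSMUSG00000045294, chromosome 5, 28071363 to 28078662), itself a classic SREBP2 target, stood at 37.4, 41.3 and 40.5 CPM in cKO libraries, against 39.0, 40.1 and 41.0 CPM in control libraries. The groups overlapped throughout, with the lowest value in cKO replicate 1 and the highest in cKO replicate 2. Its log2 fold change was -0.01 ± 0.07 (95% interval -0.16 to 0.14, adjusted p = 0.958), and its sign turned with upper-quartile scaling of the libraries. Counts measure the transcript of Srebf2 and not the cleavage of its protein, through which the factor is activated.

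The entry enzyme Hmgcs1 was higher in every cKO library by a small margin and did not pass. It encodes cytosolic HMG-CoA synthase, which makes the HMG-CoA that enters the route (ENSMUSG00000093930, chromosome 13, 119690379 to 119708260). Its level was 74.98, 77.5 and 77.4 CPM in cKO libraries, against 66.8, 73.5 and 74.4 CPM in control libraries. The groups did not overlap, but only control replicate 1 stood well below the cKO libraries. The log2 fold change was 0.10 ± 0.06 (SE, 95% interval -0.04 to 0.23, edgeR adjusted p = 0.448).

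Mvd came closest to passing among the enzymes of the mevalonate arm. It encodes mevalonate diphosphate decarboxylase, which makes isopentenyl diphosphate (ENSMUSG00000006517, chromosome 8, 122433601 to 122443422). Its level was 21.9, 22.2 and 22.8 CPM in cKO libraries, against 19.7, 15.9 and 16.7 CPM in control libraries. The cKO libraries lay close together and above every control library, of which replicate 1 was the highest. The log2 fold change was 0.36 ± 0.10 (SE, 95% interval 0.14 to 0.57), with an edgeR adjusted p of 0.0867. DESeq2 called it at an adjusted p of 0.039, as did edgeR after a trend over transcript length was removed (0.031), and its adjusted p ranged from 0.0201 to 0.256 over the alternatives. Idi1, the isomerase that readies isopentenyl units for condensation (ENSMUSG00000058258, chromosome 13, 8885501 to 8892451), stood at 17.1, 15.6 and 17.0 CPM in cKO libraries, against 15.1, 15.7 and 14.8 CPM in control libraries. Here cKO replicate 2 lay below control replicate 2, and the log2 fold change was 0.13 ± 0.10 (adjusted p = 0.557).

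The enzymes that make squalene and oxidise it did not pass, and the libraries of the genotypes overlapped for both. Fdft1 encodes squalene synthase (ENSMUSG00000021273, chromosome 14, 63145150 to 63179578) and stood at 15.7, 18.1 and 14.8 CPM in cKO libraries, against 16.3, 13.2 and 13.7 CPM in control libraries. The spread was wide in both genotypes, with coefficients of variation of 10.59% in cKO and 11.45% in control libraries. Its log2 fold change was 0.17 ± 0.12 (SE, edgeR adjusted p = 0.514). Fdft1 overlaps the opposite-strand gene Ctsb, which encodes the abundant lysosomal protease cathepsin B, by 774 bp, and its counts were 0.187% to 0.22% of those of Ctsb in every library. For Ctsb itself the log2 fold change was 0.17 ± 0.08, at an adjusted p of 0.317. Since no source used here says if reads were counted by strand, reads of the shared bases cannot be assigned, and their part in the Fdft1 value was not tested. Sqle encodes squalene epoxidase, an oxygen-dependent control point of the route (ENSMUSG00000022351, chromosome 15, 59315077 to 59331192). It stood at 30.4, 32.6 and 30.1 CPM in cKO libraries, against 28.9, 33.6 and 28.8 CPM in control libraries, with a log2 fold change of 0.03 ± 0.08 (95% interval -0.15 to 0.21, adjusted p = 0.902). The highest Sqle value was that of control replicate 2.

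Depth gave a counting error of a few percent or less for each of the 8 genes. The lowest count of any of the 8 genes was 759, for Fdft1 in control replicate 2, where counting alone gives an error of 3.63%. For Srebf2 the counting error at its lowest count was 1.11%. The coefficient of variation within a genotype ranged from 1.85% for Hmgcs1 in cKO libraries to 11.5% for Mvd in control libraries.

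Per transcript length, the order of the 8 genes shifted at Dhcr7. On the authors' FPKM scale, mean levels in cKO libraries were 19.96 for Srebf2, 14.5 for Hmgcs1, 11.2 for Insig1, 10.4 for Mvd, 6.44 for Dhcr7, 4.86 for Sqle, 4.10 for Idi1 and 3.42 for Fdft1. In control libraries they were 19.0 for Srebf2, 13.5 for Hmgcs1, 11.2 for Insig1, 8.07 for Mvd, 4.74 for Sqle, 4.24 for Dhcr7, 3.74 for Idi1 and 3.02 for Fdft1. The neighbours whose libraries overlapped were Insig1 and Mvd in cKO cells and Sqle and Dhcr7 in control cells. Dhcr7 ran from 6.13 to 6.96 FPKM and Sqle from 4.70 to 5.17 FPKM in cKO libraries, against 3.87 to 4.63 FPKM for Dhcr7 and 4.49 to 5.22 FPKM for Sqle in control libraries.

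The distance between the early enzymes and Dhcr7 was set out library by library. The mean log2 CPM of Hmgcs1, Mvd, Idi1, Fdft1 and Sqle minus the log2 CPM of Dhcr7 was -0.67, -0.74 and -0.63 in cKO libraries, against -0.34, -0.24 and -0.15 in control libraries. Dhcr7 was thus higher relative to that mean in every cKO library than in every control library. The difference between the group means was -0.44. CPM is not scaled by transcript length, so the sign of these values does not rank Dhcr7 against the early enzymes. On log2 of FPKM plus 1 the same measure was 0.02, -0.05 and 0.06 in cKO libraries, against 0.29, 0.37 and 0.45 in control libraries. There the difference between the group means was -0.36. On log2 CPM, the ratio of Dhcr7 to each of the other 7 genes was higher in every cKO library than in every control library. The mean difference ran from 0.23 for Mvd to 0.61 for Insig1. For each of these 7 ratios, which share the Dhcr7 values, the exact two-sided permutation p was 0.1 (0.1 after Benjamini-Hochberg adjustment), the smallest that 3 libraries against 3 allow. The 95% interval of the Dhcr7 log2 fold change lay above those of Srebf2, Insig1, Hmgcs1, Idi1 and Sqle, while those of Mvd and Fdft1 reached up to 0.57 and 0.42 and overlapped it. When the comparison was widened to the full lists of 11 enzymes up to lanosterol and 10 after it, the difference was 0.03 and the groups overlapped.

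**Figure D2:**
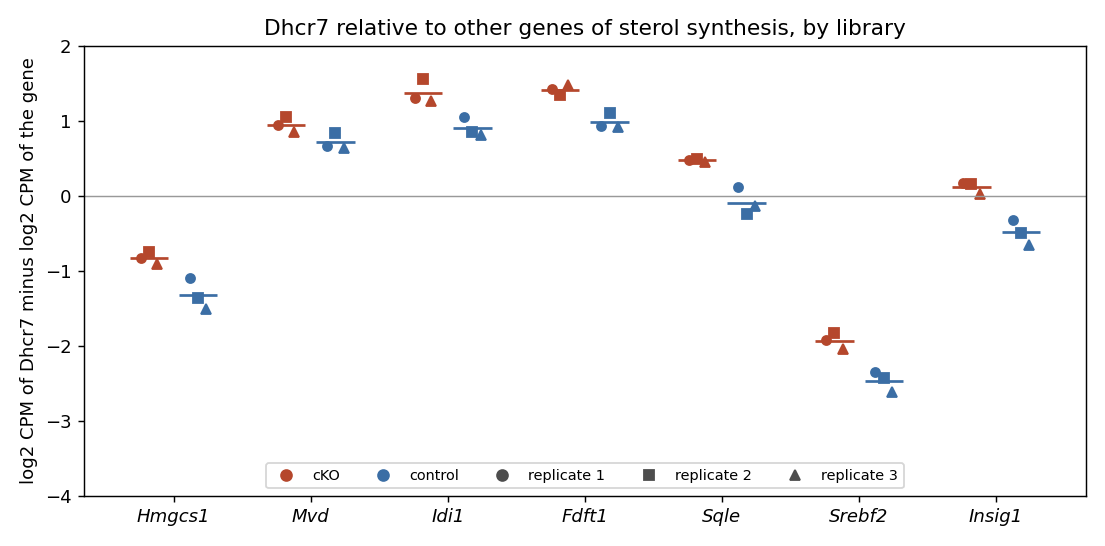
Log2 CPM of Dhcr7 minus log2 CPM of each gene named on the horizontal axis, for cKO libraries (red) and control libraries (blue); shapes mark the replicate and lines the means. The ratio was higher in all 3 cKO libraries than in all 3 control libraries for each of the 7 other genes, by 0.23 for Mvd to 0.61 for Insig1 on average.

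Beyond the 8 genes, the enzymes of the route were summarised over 19 described here, the 6 enzymes among the 8 genes included. Dhcr7 was called among them and the other 18 were not, with log2 fold changes of -0.21 to 0.36. The median of the 19 was 0.05, and 12 had a positive and 7 a negative value. At an unadjusted p under 0.05 there were 2 of the 19, Dhcr7 and Mvd, beside 17.2% of all genes tested.

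By arm, none of the 7 mevalonate enzymes described here passed with edgeR, against 1 with DESeq2 (Mvd) and 0 with limma-voom, and 1 had an unadjusted p under 0.05. Their median was 0.13. Fdps, the farnesyl diphosphate synthase blocked by bisphosphonates, was at -0.15 ± 0.12, with an adjusted p of 0.569. None of the 3 enzymes from Fdft1 to lanosterol synthase passed with edgeR, DESeq2 or limma-voom or at an unadjusted p under 0.05, and Lss, the lanosterol synthase gene, was at 0.11 ± 0.09. Of the 9 enzymes after lanosterol described here, Dhcr7 rose and none fell. The other 8 had a median of -0.11, and 5 of them had negative values.

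**Figure D3:**
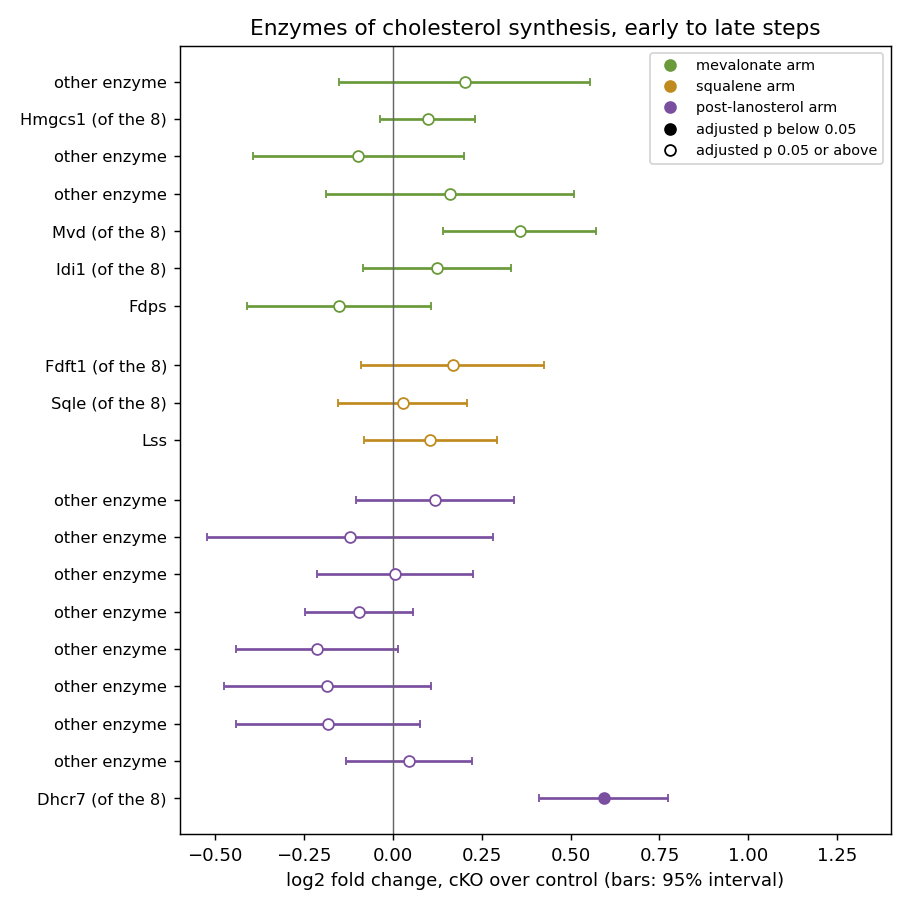
Log2 fold change of cKO over control cells (horizontal axis) for 19 enzymes of cholesterol synthesis, listed from early to late steps with 95% intervals; filled points passed an edgeR adjusted p of 0.05. Enzymes that the text does not name are marked as other; Dhcr7 at 0.59 stands to the right of the other 18 shown, whose values lie between -0.21 and 0.36.

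The machinery that senses sterols and moves SREBP2 showed no call. Of 10 genes, 0 passed with edgeR, DESeq2 or limma-voom, 1 had an unadjusted p under 0.05, and the median log2 fold change was 0.02. That gene was Insig2, the second INSIG, at 29.4, 32.5 and 31.0 CPM in cKO libraries, against 38.2, 33.7 and 41.5 CPM in control libraries. The groups did not overlap, yet the log2 fold change of -0.29 ± 0.09 had an adjusted p of 0.112. Rnf145, a sterol-responsive ubiquitin ligase, was at 0.12 ± 0.07.

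Among other SREBP2 targets and sterol carriers, 4 genes are described. Of these, 0 passed with edgeR, 1 with DESeq2 (Npc2, lower) and 0 with limma-voom, and 1 had an unadjusted p under 0.05. All 4 had negative values, with a median of -0.08. Npc2 and Npc1, which export cholesterol from lysosomes, were at -0.19 ± 0.06 (SE, edgeR adjusted p = 0.127) and -0.07 ± 0.06, and Stard4, a sterol carrier, was at -0.08 ± 0.09.

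Genes of fatty acid synthesis and desaturation, the neighbouring program driven mainly by SREBP1, had mostly positive values. Of 10 genes, 2 rose and 0 fell with edgeR, 8 had positive values, and the median log2 fold change was 0.18. DESeq2 and limma-voom each called 3, Fads2 besides Scd2 and Fasn. Over all genes they called 800 of 13237 and 581 of 16843, against 407 of 16843 with edgeR. Scd2, a stearoyl-CoA desaturase, stood at 106.7, 121.1 and 100.4 CPM in cKO libraries, against 78.0, 79.7 and 79.7 CPM in control libraries. All 3 cKO libraries were higher, with a log2 fold change of 0.47 ± 0.07 (SE, edgeR adjusted p = 0.00584). Fasn, the fatty acid synthase, stood at 135.7, 124.6 and 119.7 CPM in cKO libraries, against 106.1, 96.8 and 105.0 CPM in control libraries. Its log2 fold change was 0.30 ± 0.06 (adjusted p = 0.0323). Neither call held in every fit. Leaving out cKO replicate 1 gave adjusted p-values of 0.0543 for Scd2 and 0.208 for Fasn, and leaving out control replicate 1 gave 0.0548 for Scd2 and 0.102 for Fasn. The adjusted p of Fasn was also above 0.05 without cKO replicate 2 (0.059), control replicate 2 (0.132) or control replicate 3 (0.109) and with the length trend removed (0.0662). Fads2, a fatty acid desaturase gene, was named after its values were seen; it stood at 15.5, 15.1 and 11.8 CPM in cKO libraries, against 8.24, 9.59 and 11.1 CPM in control libraries, with a log2 fold change of 0.55 ± 0.14 (edgeR adjusted p = 0.0689). Its libraries did not overlap, though cKO replicate 3 and control replicate 3 lay close together. Srebf1, also named after its values were seen, was at 0.04 ± 0.06.

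Of 7 genes that store, release or oxidise cholesterol, Cyp27a1 rose and none fell with edgeR; DESeq2 and limma-voom each called Soat1 as well. Cyp27a1 encodes sterol 27-hydroxylase of mitochondria. Its level was 30.2, 33.4 and 31.1 CPM in cKO libraries, against 27.2, 21.7 and 21.6 CPM in control libraries. The log2 fold change was 0.43 ± 0.10 (SE, edgeR adjusted p = 0.0448), and the call was lost without cKO replicate 1 (0.174), cKO replicate 2 (0.115), cKO replicate 3 (0.0576), control replicate 2 (0.156) or control replicate 3 (0.171). Soat1, which esterifies cholesterol and was named after its values were seen, had a log2 fold change of 0.20 ± 0.06, with an edgeR adjusted p of 0.0889. The median of the 7 genes was 0.16.

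The branches that draw farnesyl and geranylgeranyl units away from sterols held no call. Of 14 genes for protein prenylation, dolichol and ubiquinone, 0 passed with edgeR and 1 with each of DESeq2 and limma-voom (Nus1), 3 had an unadjusted p under 0.05, beside 17.2% of all genes tested, and the median was -0.04. Nus1, a subunit of the dolichol-forming enzyme, was at -0.22 ± 0.06 (SE, edgeR adjusted p = 0.078). Icmt, which methylates prenylated proteins, was at -0.22 ± 0.06 (edgeR adjusted p = 0.113). Pdss2, which builds the ubiquinone tail, was at -0.40 ± 0.17 (edgeR adjusted p = 0.245). Fnta, a subunit of protein farnesyltransferase, was at -0.17 ± 0.09 (edgeR adjusted p = 0.35).

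**Figure D4:**
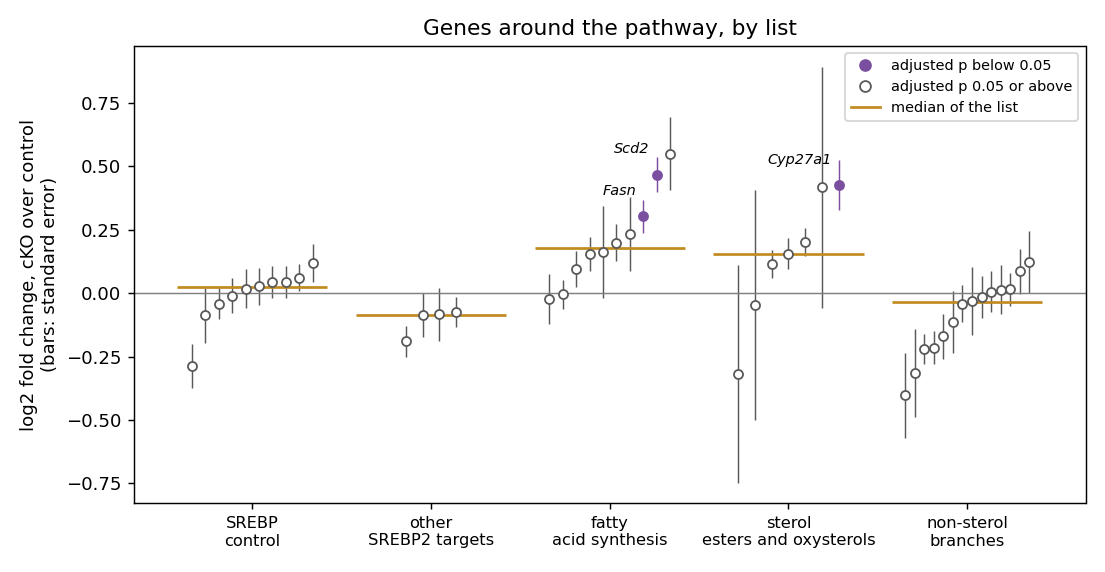
Log2 fold change of cKO over control cells (vertical axis, bars are standard errors) for genes around the pathway, grouped by list along the horizontal axis and sorted within each; horizontal lines are list medians. The only filled points, which passed an edgeR adjusted p of 0.05, are Fasn and Scd2 in fatty acid synthesis and Cyp27a1 in sterol esters and oxysterols, all higher in cKO cells.

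Among the lists of cell type markers, only that of neutrophils held genes called with edgeR. In bulk RNA fewer cells of a type and less RNA per cell cannot be told apart. Of 10 neutrophil markers 8 were tested, and Ngp, Ltf, S100a8 and S100a9 were called higher in cKO cells. Of the 8 tested, 7 had positive values and 1, Mpo, a negative one (-0.82 ± 0.50, not called, at most 1.17 CPM in any library). Camp, 1 of the 7, was lower still, at most 0.698 CPM in any library (1.56 ± 0.89, not called). The summed level of all 10 neutrophil markers was 267.9 to 301.9 CPM in cKO and 200.3 to 232.2 CPM in control libraries. The sum is carried mainly by Mmp8, which did not pass (log2 fold change 0.24 ± 0.09), and Elane and Retnlg stayed below 1 CPM in every library. Of 7 stromal markers 6 were tested and 0 passed with edgeR, against 1 each with DESeq2 and limma-voom (Pdgfrb); 3 had an unadjusted p under 0.05, all 6 had positive values, and their sum was 3220 to 5163 CPM in cKO and 3418 to 3989 CPM in control libraries. The 10 osteoclast markers all had negative values, with a median log2 fold change of -0.39, and 0 passed with edgeR, 0 with DESeq2 and 1 with limma-voom (Acp5), with 3 at an unadjusted p under 0.05. Erythroid and B cell markers summed to at most 1.22 and 14.7 CPM in any library. The part of these cell types in the Dhcr7, Scd2, Fasn and Cyp27a1 values was not tested.

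Genes whose levels followed the same pattern over the 6 libraries were sought among 10323 genes outside the lists with a mean of at least 5 CPM. The measure was Pearson's r of log2 CPM; its 6 points fall into 2 genotypes and share the libraries of the genes compared, so it is given as a description. Among the genes most like Dhcr7 were Daglb, a diacylglycerol lipase (r = 0.992), Nt5c2, a nucleotidase (0.992), Csf2rb2, a cytokine receptor chain whose reads may be shared with its close copy Csf2rb (0.991), and Fabp4, a fatty acid binding protein (0.991). Among those most like the mean of the 5 early enzymes were Daglb (0.994), Nt5c2 (0.992), Tpcn1, an endolysosomal cation channel (0.991) and Arid3b (0.989). The 5 enzymes did not all share that pattern: between pairs of them r ran from -0.11 (Mvd and Sqle) to 0.74 (Mvd and Fdft1). Daglb stood at 183.4, 209.2 and 175.9 CPM in cKO libraries, against 139.7, 123.9 and 120.4 CPM in control libraries.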

How the data were processed

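PolyA RNA libraries (dUTP method, which marks the strand, per the labels' protocols) were trimmed with cutadapt 1.9 and placed on mm10, per the submitters' processing notes; for the aligner, the counter, the annotation release and the strand setting of the counter, nothing is stated in the sources used here. The deposited files hold, for each gene, raw read counts and the authors' FPKM, per the file headers. FPKM served only to set levels of different genes side by side and as an alternative scale.

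Counts of 3 cKO and 3 control libraries were tested with edgeR 4.0.16 (R 4.3.3; filterByExpr with a minimum count of 10 and total of 15, TMM, robust quasi-likelihood F test, genotype only), adjusted by Benjamini-Hochberg over 16843 genes and called below 0.05. The SE is the log2 fold change over the square root of F. The fit was tested on simulated data. Alternatives were RLE and upper-quartile scaling, DESeq2 1.42.0, limma-voom (limma 3.58.1) with sample weights, no filter, at least 1 CPM in 3 libraries, each library left out, a replicate block, and removal of a loess trend (span 0.5) over merged exon length from GENCODE M21, which held 99.76% of the gene identifiers. Log2 CPM used a prior count of 2, and log2 FPKM a pseudocount of 1.

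The 8 genes and all lists were chosen with earlier results of these data known. Some listed or matching genes are not reported here, so list counts and medians cover the other members, except that the wider early against late comparison keeps its full lists. The naming rule takes the 8 genes, Slc11a2 and Lyz2, the called genes of each pathway list (with none called, up to 4 by smallest p), and the 5 genes most like each pattern; others are said to be named after their values were seen, apart from marker genes and Ctsb. Promoter windows were scanned on both strands over the 250 bases before the start.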

Additional observations from a re-analysis of the deposited data

How the results depend on the processing

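The call of Dhcr7 and the sign of Srebf2, Hmgcs1, Mvd, Idi1 and Fdft1 held in all 15 alternatives. The number of the 8 genes called was 1, and 2 (Mvd and Dhcr7) with DESeq2, with the length trend removed and with a replicate block together with that removal; it was 1 without any single library. Over all genes, the 407 calls became 800 with DESeq2, 673 with the replicate block, 734 with the block and the length trend removed, and 59 to 624 with a library left out, the lowest without cKO replicate 1 and the highest without cKO replicate 3. The main split was 229 higher and 178 lower in cKO cells; it was 265 and 131 with upper-quartile scaling and 242 and 120 with the length trend removed, while more genes were lower than higher with DESeq2 (371 higher, 429 lower) and with the replicate block (316 higher, 357 lower). The sign of Insig1 turned with upper-quartile scaling (0.0124), the stricter filter (0.0039) and the length trend removed (0.0411, or 0.0409 with the block), with -0.0394 to 0.0334 over the libraries left out; that of Sqle turned without cKO replicate 2 or control replicate 1 or 3 (-0.0083 to 0.1007 over the libraries left out). The cause was not tested. The early minus late difference of -0.4374 ran from -0.4857 to -0.3934 with a library left out and was 0.0337 with the wider enzyme lists, which hold 11 genes in place of the 5 early ones and 10 in place of Dhcr7. Pairing by replicate number was not seen: same-numbered deviations from the group means correlated at -0.025, -0.018 and -0.004. No library correlated best with its own number. These correlations cannot exclude a pairing, because they rest on 3 libraries per genotype and take in genes with low counts. The replicate block changed the number of calls over all genes, as given above, and left the calls of the 8 genes as they were.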
